A study of Mus musculus with 6 samples.

Results

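Histone genes encode the proteins that package DNA in the nucleus. The table of gene expression analysed here holds 68 of them among 20624 genes. They were chosen by name: 65 carry a name of the histone gene clusters, such as Hist1h4d, and are referred to as replication-dependent, and 3 are replacement histones (H1f0, H3f3a and H3f3b). The name rule itself uses no measured value, although it was written with earlier results of these data known. Of the histone genes that stand in the table under symbols the name rule does not cover, 8 were used for comparison (H2afx, H2afz, H2afv, H2afy, H2afy2, H2afj, H1fx and Cenpa).

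RNA was sequenced from mDCT15, a cell line made from the mouse distal convoluted tubule, the nephron segment that follows the loop of Henle. The 6 samples, labelled as biological replicates, were 3 of wild type cells and 3 of Pkd1-/- cells, in which the gene for polycystin-1 had been disrupted by CRISPR-Cas9. The labels give the genotype of the latter as a PKD1 knockdown, although their titles read Pkd1-/-. No sample was given a treatment, and both kinds of cells grew in the same medium with fetal bovine serum. The number of clones behind the knockout line was not given in the sources used here. Each gene has a mean over all 6 samples, so the values below describe wild type and knockout cells together, with no spread between samples, no test and no comparison of the genotypes. Levels of Pkd1 in single samples, which would check the labels, were not analysed here for the same reason.

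Each nucleosome holds DNA wound around a core of the histones H2A, H2B, H3 and H4, and the linker histone H1 binds where the DNA enters and leaves. Replication-dependent genes supply most of these proteins while DNA is copied in S phase. Their RNA usually has no introns and no poly(A) tail, and it ends after a short stem-loop that is bound by the stem-loop binding protein. Replacement histones are made throughout the cell cycle from genes that mostly have introns and polyadenylated RNA. The libraries were made from total RNA after removal of ribosomal RNA, without selection for poly(A) tails, so both kinds of RNA could be sequenced.

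The stem-loop sets most replication-dependent genes apart from the replacement members, so it is shown for the replication-dependent gene of each family with the highest level per kilobase of annotated exon, read on the coding strand of the mouse genome GRCm39. Capitals mark the 16 bases of the stem and loop: 6 bases, a loop of 4 bases and the reverse complement of the first 6. Lower case marks 5 bases on each side.
Hist1h1a (H1): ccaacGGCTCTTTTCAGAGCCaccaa
Hist1h2ak (H2A): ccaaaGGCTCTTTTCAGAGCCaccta
Hist1h2bn (H2B): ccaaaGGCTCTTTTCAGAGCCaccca
Hist1h3i (H3): caaaaGGCTCTTTTCAGAGCCccctc
Hist1h4k (H4): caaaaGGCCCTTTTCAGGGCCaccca
Hist1h4b (H4): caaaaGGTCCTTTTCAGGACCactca
H2afx (H2A.X): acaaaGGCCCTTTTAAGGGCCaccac

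The capitals lie at chr13:23948375-23948390 on the plus strand for Hist1h1a, chr13:21937552-21937567 on the minus strand for Hist1h2ak and chr13:21938703-21938718 on the plus strand for Hist1h2bn. Those of Hist1h3i are at chr13:21967090-21967105 and those of Hist1h4k at chr13:21934320-21934335, both on the minus strand. Those of Hist1h4b are at chr13:23941349-23941364 and those of H2afx at chr9:44246537-44246552, both on the plus strand. Each lies in the 3′ untranslated part of its gene, or just past the annotated end where the annotated transcript stops earlier. In the annotation used here these genes are named H1f1, H2ac15, H2bc15, H3c11, H4c12, H4c2 and H2ax, in the order of the sequences. Hist1h4b was added because it shows the other stem found in H4 genes, and H2afx because it is a replacement histone with a stem-loop.

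Of the 63 replication-dependent members that are annotated as protein coding, 59 had such a stem-loop within 100 bases after the stop codon. It was found in 6 of 6 H1, 15 of 16 H2A, 14 of 17 H2B, 11 of 11 H3 and 13 of 13 H4 genes. Among all 21770 protein-coding genes of the annotation, 270 (1.24%) held a repeat of this form in the same window. None of the 3 replacement members had such a perfect repeat, although H3f3a had one when 1 mismatch was allowed, as did 11.0% of all protein-coding genes. Between the stop codon and the first base of the stem lay 21 to 58 bases, with a median of 31. The members without it were Hist1h2an, Hist1h2bp, Hist1h2br and Hist2h2be. Hist1h2an and Hist2h2be had one when 1 mismatch was allowed. Hist1h2bp and Hist1h2br are annotated with proteins of 138 and 134 residues, longer than those of the other H2B genes. Their search began at the stop codon of that annotation, and other reading frames were not searched.

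The first 6 bases of the stem divided the families. GGCTCT stood in 46 genes, which were all of the H1, H2A, H2B and H3 genes with a stem-loop. The 13 H4 genes had either GGCCCT, in 11 genes, or GGTCCT, in 2 genes, Hist1h4b and Hist1h4j. The loop was TTTC in 45 of the 59 genes and TTTA in 9, with TTTT in 3, TCTT in 1 and TCTC in 1. H2afx carried the GGCCCT stem of H4 genes with a TTTA loop.

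The annotation continued for more than 50 bases past the stem-loop in 26 of these genes, ended within 50 bases after it in 17 and ended before it in 16. These lengths matter for every level per kilobase given below. Hist1h1d, for example, is annotated with 7425 bases of exon and 666 coding bases, while the annotated exon of Hist1h4k is its coding sequence of 312 bases. For this reason levels are given per kilobase (kb) of annotated exon and per kb of coding sequence. The second scale divides reads from all exons by the coding bases alone, which raises genes with long untranslated parts.

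The unit of a level is the authors' mean normalized count: the read count of a gene divided by the size factor of its library and averaged over the 6 samples. The members' means added up to 160680, which was 0.960% of the sum over all genes. Their median was 1403, against 104.5 over all genes in the table. A mean of at least 1000 was reached by 41 of the 68 members (60.3%) and by 4320 of all genes (20.9%). Another 16 members lay between 100 and 1000, 4 between 10 and 100 and 5 between 1 and 10. The remaining 2 were under 1: Hist1h2aa with a mean of 0.671 and Hist1h2ao with 0.658.

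Per kb of exon the replication-dependent genes stood higher still, since their transcripts are short. The median over all genes was 28.6 per kb, and 34 of the 65 replication-dependent genes were in the top 1% of genes by this measure. In the top 5% there were 48, and 8 lay below the median of all genes. A mean over bulk RNA does not tell how many cells were in S phase from how much histone RNA each of them held.

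**Figure D1:**
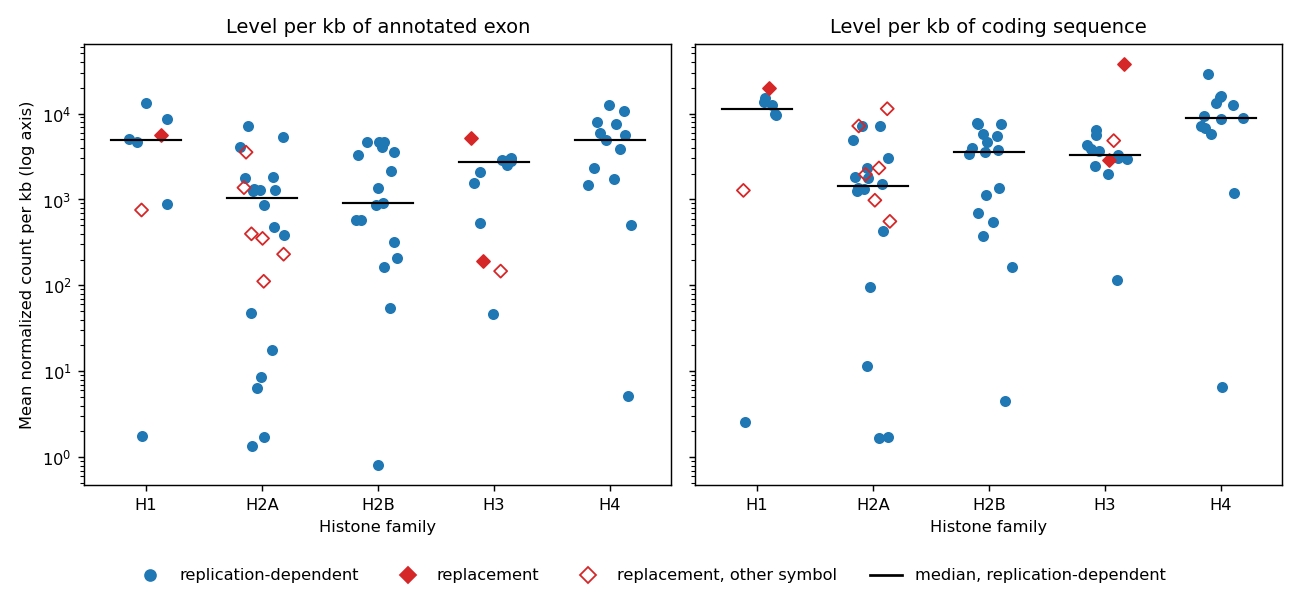
Mean normalized count per kb of annotated exon (left) and per kb of coding sequence (right), on log axes, for each histone gene by family. Circles are replication-dependent genes, filled diamonds replacement members, open diamonds replacement genes under other symbols, and bars the median of the replication-dependent genes; H3f3b rises from 5144 per kb of exon to 37664 per kb of coding sequence, above every other gene shown.

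The H4 genes gave the largest family sum. Summed over the replication-dependent genes, H4 reached 64789 per kb of exon over 13 genes, H2B 32222 over 17, H2A 27095 over 18 and H3 24025 over 11. H4 thus made up 43.7% of the replication-dependent core histone level per kb of exon and 50.8% per kb of coding sequence. The other shares were 21.8% and 22.0% for H2B, 18.3% and 12.9% for H2A, and 16.2% and 14.3% for H3. On both scales, the order of the replication-dependent sums had H4 first and H2B second, and H2A and H3 changed places between the scales. A nucleosome holds equal numbers of the 4 core histones, but these sums leave out replacement genes. Per kb of coding sequence H3f3a and H3f3b summed to 40541, beside 37758 for the replication-dependent H3 genes. The 6 replacement H2A genes summed to 24357, beside 34140, and H2B stood at 57984. The families also differ in shared sequence, as given below, and neither length takes this into account.

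All 13 H4 genes encode a single protein sequence, although their coding sequences differ. Over the 78 pairs of H4 genes, a median of 19 of 309 coding bases differed, with a range of 0 to 45. The highest H4 gene per kb of exon was Hist1h4k, at 12523, with a mean of 3907. Hist1h4h followed with 10608 per kb and a mean of 4986, and Hist1h4d with 7864 per kb and a mean of 8949. Hist1h4d was the most abundant H4 gene before division by length and led the family per kb of coding sequence, at 28684. Hist1h4f stood at 7525 per kb of exon and Hist1h4c at 5892. The lowest was Hist1h4m, at 5.14 per kb with a mean of 2.07. The H4 genes outside the large cluster were also read: Hist2h4 on chromosome 3 had a mean of 2790, and Hist4h4 on chromosome 6 had a mean of 4179.

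Before division by length, the linker histones were the family with the highest means per gene. The 6 replication-dependent H1 genes had a median of 7253, and 5 of them lay between 6497 and 9759. Per kb of exon their median (4879) was below that of the H4 genes (4971). Per kb of coding sequence it was above, at 11143 against 8941. The H1 genes also shared the least sequence of the families, as given below. Hist1h1a led, with a mean of 9759 and a level of 13170 per kb of exon, the highest of all members on that scale. Hist1h1b stood at 8744 per kb, Hist1h1c at 5119, Hist1h1e at 4640 and Hist1h1d at 878. The last value rests on the long annotated exon: per kb of coding sequence Hist1h1d reached 9789, beside 9668 for Hist1h1b. Hist1h1t, the linker histone of the testis, had a mean of 1.63 and a level of 1.78 per kb of exon. Each of the 6 genes encodes its own protein.

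Among the H2A genes, which pair with H2B in the nucleosome, Hist1h2ak, Hist2h2ac and Hist1h2ab stood highest per kb of exon. Hist1h2ak had a level of 7134 per kb of exon and a mean of 2804, and Hist2h2ac, on chromosome 3, had 5373 per kb and a mean of 2794. Hist1h2ab was next at 4051 per kb, and Hist1h2an (1818) and Hist1h2ai (1780) came after a wider gap. This order depends on the length used: per 1000 words of 42 bases at 1 place in the genome, Hist2h2ac (10544) stood below Hist1h2ai (20574) and Hist1h2an (14582), which rest on 34 and 49 such words. The 18 names include 2 that the annotation lists as pseudogenes, Hist1h2aj with a mean of 2.26 and Hist1h2al with 16.02. The lowest was Hist1h2ao, at 1.37 per kb. The 16 coding genes encode 9 different proteins, of which the most common is shared by 8 genes with a summed level of 11547 per kb of exon.

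Per kb of exon the upper H2B genes were closer to each other. Hist1h2bn stood at 4723 per kb of exon, Hist1h2bg at 4702, Hist1h2bk at 4659, Hist1h2bm at 4033 and Hist1h2bl at 3576. Their means ranged from 1362 to 2906. The lowest was Hist1h2br, with 0.816 per kb and a mean of 1.81. The 17 genes encode 12 proteins. Hist1h2ba, known as the testis form of H2B, had a mean of 62.7.

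The 5 highest H3 genes were close to each other per kb of exon, at 2804 to 3063: Hist1h3i at 3063, Hist1h3h at 2976, Hist1h3b at 2865, Hist1h3a at 2829 and Hist2h3b at 2804. On the scale of words at 1 place in the genome used above for H2A, these 5 ran from 6596 (Hist1h3a) to 55588 (Hist1h3h). That scale was chosen after seeing the data. By mean and per kb of coding sequence, Hist1h3f (2622 and 6381) and Hist1h3e (2307 and 5613) were the highest H3 genes. The lowest H3 gene was Hist2h3c2, at 46.6 per kb of exon with a mean of 47.5. The 11 genes encode 2 proteins that differ at 1 residue. The 4 genes of the form known as H3.1 (Hist1h3a, Hist1h3g, Hist1h3h and Hist1h3i) summed to 10406 per kb of exon, and the 7 genes of the form known as H3.2 summed to 13618. Per kb of coding sequence the same sums were 11698 and 26059. This order need not hold on the scale of words at 1 place in the genome, where these sums were not taken. There the H3.1 genes Hist1h3h (55588) and Hist1h3i (34024), which rest on 22 and 37 such words, stood above every H3.2 gene. Hist2h3b (15377) was the highest H3.2 gene, above the other H3.1 genes, Hist1h3a (6596) and Hist1h3g (3830).

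Replacement histones were compared with the replication-dependent genes of their own family. H3f3a and H3f3b encode the same protein, H3.3, which is placed into chromatin outside of replication. Its sequence differs from the H3.1 sequence of Hist1h3a at 5 residues and from the H3.2 sequence of Hist1h3b at 4, and the 2 H3.3 genes differ from each other at 95 of 408 coding bases. H3f3b had a mean of 15480, the highest of all members, and H3f3a a mean of 1183. Per kb of exon H3f3b stood at 5144 and H3f3a at 193. H3.3 made up 18.2% of the level of H3.1, H3.2 and H3.3 together per kb of exon, but 51.8% per kb of coding sequence. The first value divides by annotated exons of 6116 bases (H3f3a) and 3009 bases (H3f3b), several times their coding sequence of 411 bases. The second value divides reads from all exons by the coding bases alone. Every H3.1, H3.2 and H3.3 gene here has 411 coding bases, so the second value equals the share with no length (51.8%). The larger H3 class thus depends on the length used.

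In the H2A family the replacement genes lay outside the name rule. H2afx encodes H2A.X, which is phosphorylated at DNA breaks, and had a mean of 4911 and a level of 3549 per kb of exon. H2afz encodes H2A.Z, found at promoters, and had a mean of 2774 and 1373 per kb. The second H2A.Z gene, H2afv, had a mean of 1360 (398 per kb). The macroH2A genes H2afy and H2afy2, whose proteins are known from silent chromatin, had means of 2174 and 1096 (231 and 352 per kb). H2afj had a mean of 212 (112 per kb). H2A.Z, H2A.X and macroH2A made up 17.9% of the H2A level per kb of exon and 41.1% per kb of coding sequence. H2A.X carried much of that share: with H2afx counted among the replication-dependent genes, since its RNA has a stem-loop of the same form, the share per kb of exon was 7.13%.

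H1f0, the replacement linker histone known from cells that divide little, had a mean of 11477, above each of the replication-dependent H1 genes. Per kb of exon it stood at 5585, below Hist1h1a and Hist1h1b, and per kb of coding sequence at 19619, above all of them. Its annotated exon of 2055 bases holds 585 coding bases. H1fx had a mean of 918 and a level of 754 per kb of exon. H1f0 and H1fx together made up 16.3% of the H1 level per kb of exon and 25.6% per kb of coding sequence. Cenpa, the H3 form of centromeres, had a mean of 1959 and 147 per kb of exon. Over the core histones, with Cenpa, H2afj, H3f4 and H3f5 left out of the sums here and in the family shares, replication-dependent genes made up 92.9% of the level per kb of exon and 80.4% per kb of coding sequence.

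**Figure D2:**
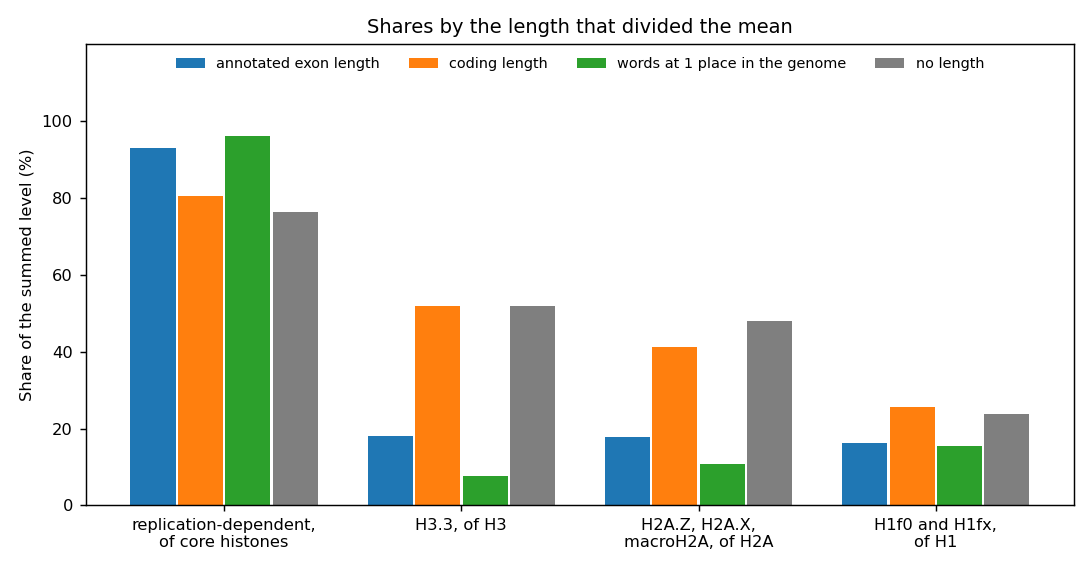
Share of the summed level (%, axis from 0) under 4 choices of the length that divided the mean: annotated exon length, coding length, the number of 42-base words found at 1 place in the genome, and no length. Replication-dependent genes held between 76.2% and 96.0% of the core histone level, whereas H3.3 ranged from 7.64% to 51.8% of H3.

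Most of the histone signal came from a single chromosome. Chromosome 13 held 54 members and 74.7% of the members' summed means, with all but the pseudogene Hist1h2al in a single large cluster. The cluster on chromosome 3 held 8 members and 4.88%, the pair on chromosome 11 (Hist3h2a and Hist3h2ba) 0.294%, and Hist4h4 on chromosome 6 2.60%. H3f3b, elsewhere on chromosome 11, gave 9.63%, H1f0 on chromosome 15 7.14% and H3f3a on chromosome 1 0.736%. Within that cluster, the 31 genes between positions 23715220 and 24118834 had a median mean of 1916, and the 22 genes between 21899933 and 22227846 had a median of 1241. The latter group also shared more sequence with other places in the genome, with a median of 85.8% of their 42-base words against 43.0%.

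Shared sequence can bear on the count of a gene that has it. The reads were 42 bases long at each end, and the default of the read counter leaves out reads that align to several places. The median replication-dependent gene had 51.6% of its 42-base words in a transcript of another gene and 50.7% at more than 1 place in the genome. By the second measure the family medians were 1.90% for H1, 43.0% for H4, 46.7% for H2B, 61.0% for H3 and 70.7% for H2A. More than 50% of words were shared in 34 of the 65 genes and more than 90% in 9, while 12 genes shared less than 10%. Some replacement genes also had words at more than 1 place in the genome: 67.3% for H2afz, 33.7% for H3f3b and 21.02% for H3f3a. H2afj, H2afy2 and H2afx shared 10.5%, 8.54% and 7.297%, while H1f0, H1fx, H2afv, H2afy and Cenpa shared 0%. How many reads of any gene, replacement or replication-dependent, were left out was not tested.

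The 7 members with a mean under 10 fell at both ends of this scale. Hist2h2aa2 and Hist1h2ao had all of their words elsewhere in the genome (100%), with means of 4.58 and 0.658. Hist1h2br shared 96.6% (mean 1.81), Hist1h2aj 93.2% (mean 2.26) and Hist1h4m 90.03% (mean 2.07). For Hist2h2aa2 and Hist1h2ao a low level and reads left out for their shared sequence cannot be told apart. Hist1h2br, Hist1h2aj and Hist1h4m had 41, 21 and 36 words at 1 place in the genome, and which of the causes applied to them was not tested. Hist1h1t and Hist1h2aa, both known from the testis, shared 0% and 5.73% of their words. Hist1h2aa overlaps another annotated gene on the same strand, and the default of the read counter also leaves out reads that overlap 2 genes. High sharing did not always go with a low mean: Hist1h4n shared 93.1% with a mean of 2137 and Hist1h3h 94.1% with a mean of 1223. They had 27 and 22 words at 1 place in the genome. Over the 65 genes Spearman's rho of the mean with the shared share was -0.31, a description across genes that lie in the same clusters and were read in the same libraries.

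**Figure D3:**
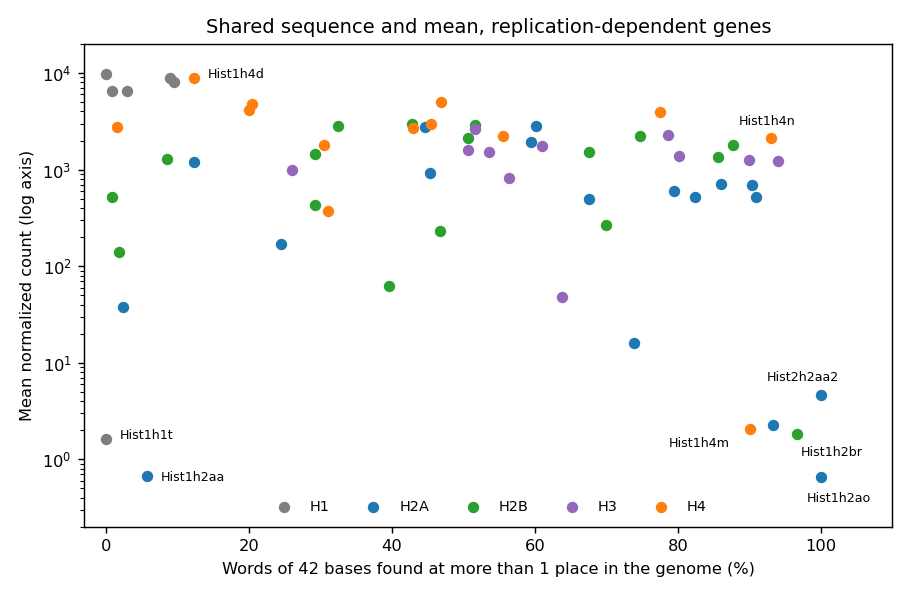
Mean normalized count (log axis) of the 65 replication-dependent genes against the percentage of their 42-base words found at more than 1 place in the genome, coloured by family. Of the 7 genes with a mean under 10, 5 lie at 90.03% or above on the horizontal axis and 2, Hist1h1t and Hist1h2aa, lie at 0% and 5.73%.

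Many H2A and H2B genes lie back to back and share the DNA between their start codons. There were 10 such pairs, with 278 to 334 bases between the start codons. The H2B gene was the higher of the pair per kb of coding sequence in 6 pairs, and the median ratio of H2B to H2A was 2.24. In the pair of Hist2h2ac and Hist2h2be the H2A gene led, at 7164 against 372 per kb of coding sequence. Hist1h2ak (7134) also stood above Hist1h2bn (4723) on this scale, but per 1000 words at 1 place in the genome, a length chosen after seeing the data, Hist1h2bn (42845, from 42 such words) stood above Hist1h2ak (20026, from 140). With that length the H2B gene was the higher in 7 pairs, the median ratio was 1.52 and the ratios ran from 0.00531 to 148. In the testis pair, Hist1h2ba reached 163 per kb and Hist1h2aa 1.72, a ratio of 94.8. A shared stretch between the genes therefore went with ratios from 0.0519 to 94.8 per kb of coding sequence. The upper end rests on Hist1h2aa, with a mean of 0.671 and an overlapping annotated gene on the same strand.

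**Figure D4:**
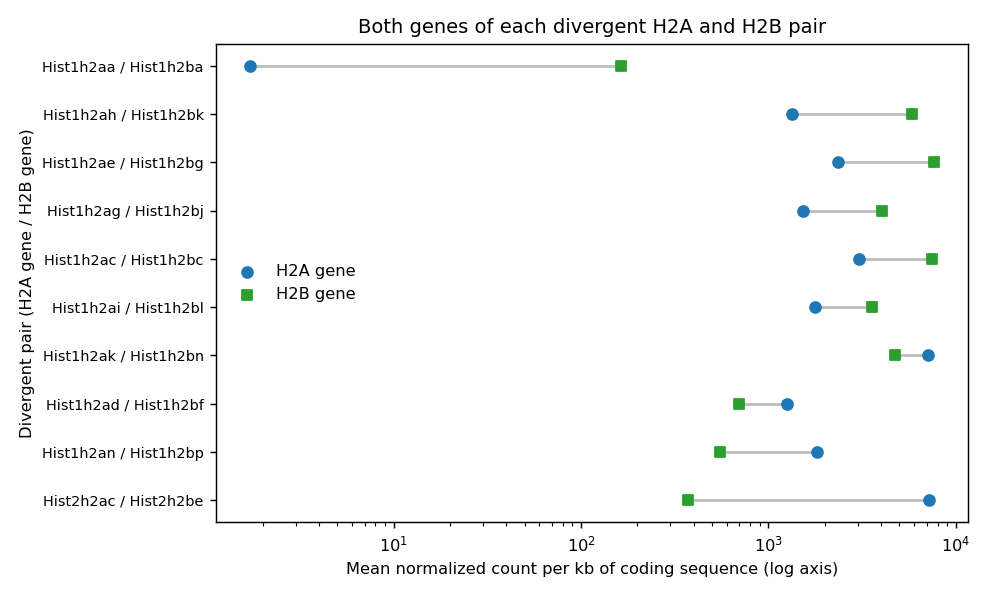
Mean normalized count per kb of coding sequence (log axis) for the H2A gene (circle) and the H2B gene (square) of each of the 10 divergent pairs, ordered by the ratio of H2B to H2A. The H2B gene is the higher in the upper 6 pairs and the H2A gene in the lower 4.

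Short promoter motifs differed between the families. RefSeq promoters, which run from 250 bases before to 50 bases after the start of a gene on GRCm38.p6, were matched for 58 of the 65 replication-dependent genes, and motifs were searched on both strands. The TATA motif TATAAA stood in 34 of them (58.6%), against 14.2% of all 27025 promoters. The motif CCAAT, read by nuclear factor Y, stood in 49 (84.5%) against 37.9%. It was in every matched promoter of H1 (6), H2A (16), H2B (15) and H3 (9), and in 3 of the 12 H4 promoters. The octamer ATTTGCAT, a site of POU-domain factors, was in 7 H2A and 6 H2B promoters (22.4% of the 58, against 1.75% of all) and in none of the replication-dependent H1, H3 or H4 promoters. All 3 replacement members had a promoter in the table, with TATAAA in 1, CCAAT in 2 and the octamer in 1. Promoters of a divergent pair cover much of the same DNA, so the H2A and H2B counts are not independent.

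The genes that make and process histone RNA were present in the table. Of 20 names listed, 19 had a row, and the name without a row, Ars2, is another name of the listed Srrt. Their median mean was 1929. The 3 highest were Srrt (3261), which works with the cap-binding complex in RNA 3′ end formation, Upf1 (3150), a helicase needed for decay of histone RNA, and Ncbp1 (2656), a cap-binding subunit. The lowest was Zfp473 (38.2), a zinc finger protein of the histone processing complex. Slbp, the stem-loop binding protein, had a mean of 2612, and Npat, the activator of histone gene transcription, 1392. The Lsm10 and Lsm11 subunits of the U7 particle, which directs the cut behind the stem-loop, had means of 259 and 343.

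Histone chaperones carry newly made histones to DNA. All 18 listed chaperones of H3 and H4 had a row, with a median of 2053. Rbbp4, a subunit of chromatin assembly factor 1, was the highest (9256), followed by Mcm2, the helicase subunit that also binds H3 and H4 (6307), and Hjurp, the chaperone of centromeric H3 (4862). Hira, which deposits H3.3, was the lowest (245). All 16 listed genes of H2A and H2B chaperones and of H2A.Z exchange complexes had a row, with a median of 3013. They were led by nucleolin, Ncl (14846), nucleophosmin, Npm1 (10244), and the importin Ipo9 (7667), and the lowest was Srcap, which places H2A.Z (281). The 5 linker histone chaperones had a median of 5304, from Nasp (3305) to Parp1 (5304), Ptma (6603) and Npm1.

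Genes of S phase and cell division were abundant in the same cells. All 20 listed genes had a row, with a median of 4882 against 104.5 over all genes in the table. Each had a mean of at least 100, a limit close to the median of all genes. Top2a, which untangles replicated DNA, had a mean of 20474, Mki67, the proliferation marker Ki-67, 10132, and Mcm6 of the replicative helicase 8199. The lowest was the S phase cyclin Ccne1 (433). Of 13 further histone names, mostly of the testis, 4 had a row: Cenpa and H2afj, given above, H3f4 (11.5) and H3f5 (1.08).

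The label of the cells was set beside marker genes, whose levels did not settle it. Of 11 markers of the distal convoluted tubule, 7 had a row: Wnk1 (8468), Stk39 (621) and Wnk4 (413), kinases of the pathway that controls salt uptake, were the highest and Klhl3 (5.70) the lowest. Slc12a3, the sodium chloride cotransporter that defines this segment, had no row in the table used here, nor had Pvalb, Calb1 and Slc8a1. Of 6 epithelial markers, Cdh16 (4680), Epcam (115) and Krt8 (0.980) had a row. All 4 proximal tubule markers did, with Aqp1 at 11355, Lrp2 at 8826, Slc5a2 at 2.77 and Slc34a1 at 2.04. Aqp1 and Lrp2 stood above every listed marker of the distal convoluted tubule. Scnn1g (0.618) was the only one of 4 collecting duct markers with a row. Of 4 fibroblast markers Col1a1 was the highest (201), followed by Dcn (6.01) and Pdgfrb (4.48), and Col3a1 was the lowest (2.44). Pecam1 of the endothelium (4.68) and Ptprc of immune cells (5.36) were the only markers of their lists of 3 with a row. The part of any other cell type in the histone levels was not tested.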

How the data were processed

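RNA was sequenced by the study from 6 samples of mDCT15 cells, 3 Pkd1-/- and 3 wild type, grouped by their titles. According to the methods and the submitters' processing notes, reads of 42 bases from each end were trimmed with Trim Galore 0.4.5, mapped with STAR 2.7.5a to GRCm39, counted per gene with HTSeq 0.11.0 at its default settings, and normalized with DESeq2 1.22.0 in R 3.5.3. The deposited signal used here is the authors' mean normalized count of each gene over all samples, which was not divided by gene length. A minimum of 5 counts per sample was stated, but means in the table go down to 0.618. The other 5 numeric columns hold the authors' comparison of the genotypes (fold change, standard error, statistic, p-value and adjusted p-value). They were not used, so no genotypes were compared, and the planned test on counts was not run. The depth of each sample is unknown, and no interval, spread or test could be given. The genes Gm26917 (6.29%) and Gm42418 (1.79%) had the largest shares of all means.

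Genes were matched by identifier to the GENCODE vM39 annotation of GRCm39 (20122 of 20624 genes, 97.6%, and all 68 histone genes). Means were divided by the union of annotated exons or by the coding length. The study counted reads with another annotation release, from Ensembl. Exon lengths and overlaps given here may therefore differ from those of the features that were counted. Of the 65 replication-dependent genes, 61 have 1 exon, 15 overlap another annotated gene on the same strand and 38 on the other strand. Words of 42 bases of each gene's transcript were looked up in all other transcripts and on both strands of the genome. A stem-loop was a perfect inverted repeat of 6 bases around 4 bases, with T in at least 2 of the first 3 loop bases. Promoters came from RefSeq. The word and stem-loop searches were tested on simulated sequences. Python 3.11.15, pandas 2.3.3, numpy 2.4.6, numba 0.67.0, Biopython 1.88 and matplotlib 3.10.9 were used.

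Named are all replacement histones, the 5 highest and the lowest replication-dependent genes of each family per kb of exon, the members with a mean under 1, and the 3 highest and the lowest gene of each other list. The others were named after their values were seen. The members and gene lists were chosen with earlier results of these data known.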

Additional observations from a re-analysis of the deposited data

How the results depend on the processing

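The length that divides the mean changed the shares most. The histone share of all means, 0.960%, became 6.65% per kb of exon, and 1.04% without the 2 most abundant genes, an alternative chosen after seeing the data. The replication-dependent share of the core histone level (92.9%) was 80.4% with coding length, 76.2% with no length, 96.8% with the number of 42-base words found in no other gene as length, 96.0% with the words at 1 place in the genome (chosen after seeing the data) and 95.2% with H2afx counted as replication-dependent. In the same order, the H3.3 share (18.2%) was 51.8%, 51.8%, 5.96% and 7.64%, the share of H2A.Z, H2A.X and macroH2A (17.9%) was 41.1%, 47.9%, 8.11%, 10.9% and, with H2afx moved, 7.13%, and the replacement linker share (16.3%) was 25.6%, 23.8%, 14.8% and 15.5%. The shared share of words (51.6%) was 59.2% with words of 30 bases, 39.2% with words of 84 bases and 50.7% in the genome (chosen after seeing the data). Leaving out genes with a mean under 10 left these shares at 0.961%, 92.9%, 18.2%, 17.9% and 16.3%. The count of genes with a stem-loop was 59 within 300 bases and 62 with 1 mismatch allowed (61 replication-dependent genes and H3f3a), when 11.0% of all protein-coding genes held such a repeat. No paired analysis was possible because no result comes from a test and the values used are means over all samples. For the same reason no replicate could be left out, and the alternatives written for counts per sample were not run.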
